A study of Rattus norvegicus with 10 samples.

Results

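Oxidative phosphorylation genes encode the nuclear-made proteins of the 5 enzyme complexes of the inner mitochondrial membrane. The members described here are the gene symbols of the deposited read-count table that begin with Ndufa, Ndufb, Ndufc, Ndufs or Ndufv, Uqcr, Cox4 to Cox8 or Atp5, together with Sdha to Sdhd. They are 88 of the 13686 symbols in the table, and no pseudogene name among them had to be left out. The rule goes by name, so that gene copies without such a name may be included. Of the 88 members, 35 are counted as complex I subunits, 7 as complex I assembly factors, 4 as complex II, 8 as complex III, 17 as complex IV and 17 as complex V. Ndufa4 and its paralogue Ndufa4l2 are counted with complex IV, to which Ndufa4 is now assigned.

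The BT-11 group was 5 male TgF-344AD rats (genotype Tg-AD), whose chow held BT-11 for 6 months, starting at an age of 5 months. The untreated group was 5 male TgF-344AD rats given rodent chow. All were sampled at 11 months, with ketamine at 100 mg/kg and xylazine at 10 mg/kg as anaesthesia, and 1 left hippocampus per rat was sequenced. TgF-344AD is known as a line that carries mutant human amyloid precursor protein and presenilin transgenes under a prion protein promoter, and both groups carry them. No wild-type rats are among these samples. BT-11 is known as an oral ligand of LANCL2.

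Complexes I and II take electrons from NADH and succinate, complex III passes them to cytochrome c, and complex IV hands them to oxygen. Complexes I, III and IV pump protons, and complex V, the ATP synthase, uses the proton gradient to make ATP. Neurons depend on this pathway for most of their ATP, and the choroid plexus epithelium is also rich in mitochondria. Complexes I, III, IV and V also hold subunits encoded by mitochondrial DNA, which were not analysed here.

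The summed count per library ran from 8984439 to 11301545, and members made up 1.01 to 1.13% of it in BT-11 libraries and 1.05 to 1.26% in untreated libraries. Levels are given as CPM, estimated counts scaled by the total of a library, with the SD over 5 rats after the ± sign. Fold changes are log2 of BT-11 over untreated, with the standard error (SE) from edgeR after the ± sign. Over all 11771 genes tested, edgeR's quasi-likelihood test called 0% at an adjusted p of 0.05 in either direction, and 0% in the lower direction. DESeq2 called 0.306%. Of 8 markers of hippocampal neurons 7 passed the filter on low counts, and the list summed to 782 to 1426 CPM in BT-11 and 837 to 1169 CPM in untreated libraries. The lowest hippocampal sum, 782 CPM, was in BT-11 replicate 2. Markers of striatum and thalamus summed to 274 and 168 CPM in BT-11 replicates 2 and 4, against 110 to 137 CPM in the other 8 libraries. Choroid plexus markers summed to 3786 and 720 CPM in untreated replicates 2 and 5, against 8.13 to 68.7 CPM in the other 8 libraries.

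Most members were slightly lower with BT-11, and none passed the test. Of 86 members tested, 81 (94.2%) had a log2 fold change below 0, against 51.8% of all genes tested. The median over members was -0.11, with a range from -0.52 for Cox4i2 to 0.04 for Cox6b2, against a median of -0.01 over all genes. At an unadjusted p under 0.05 there were 5 members lower and 0 higher, against a background of 5.05% of genes lower and 4.04% higher, so that 5 of 86 is near the background. Those 5 were Ndufa10l1, Ndufv2, Cox6c, Cox4i2 and Atp5f1b, and the smallest adjusted p of any member was 0.506 in edgeR. DESeq2 called none of the members, with a smallest adjusted p of 0.224. For no member did the BT-11 and untreated libraries separate. Over all genes they did for 0.544% in the lower and 0.578% in the higher direction, so that 0 of 86 is near the background. The lower bound of the 95% interval was above -0.50 for 81 of the 86 members and above -1 for 85, Cox4i2 being the exception to the second bound. The members were chosen with earlier results of these data known, so that their shared direction is a description and was not tested.

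**Figure D1:**
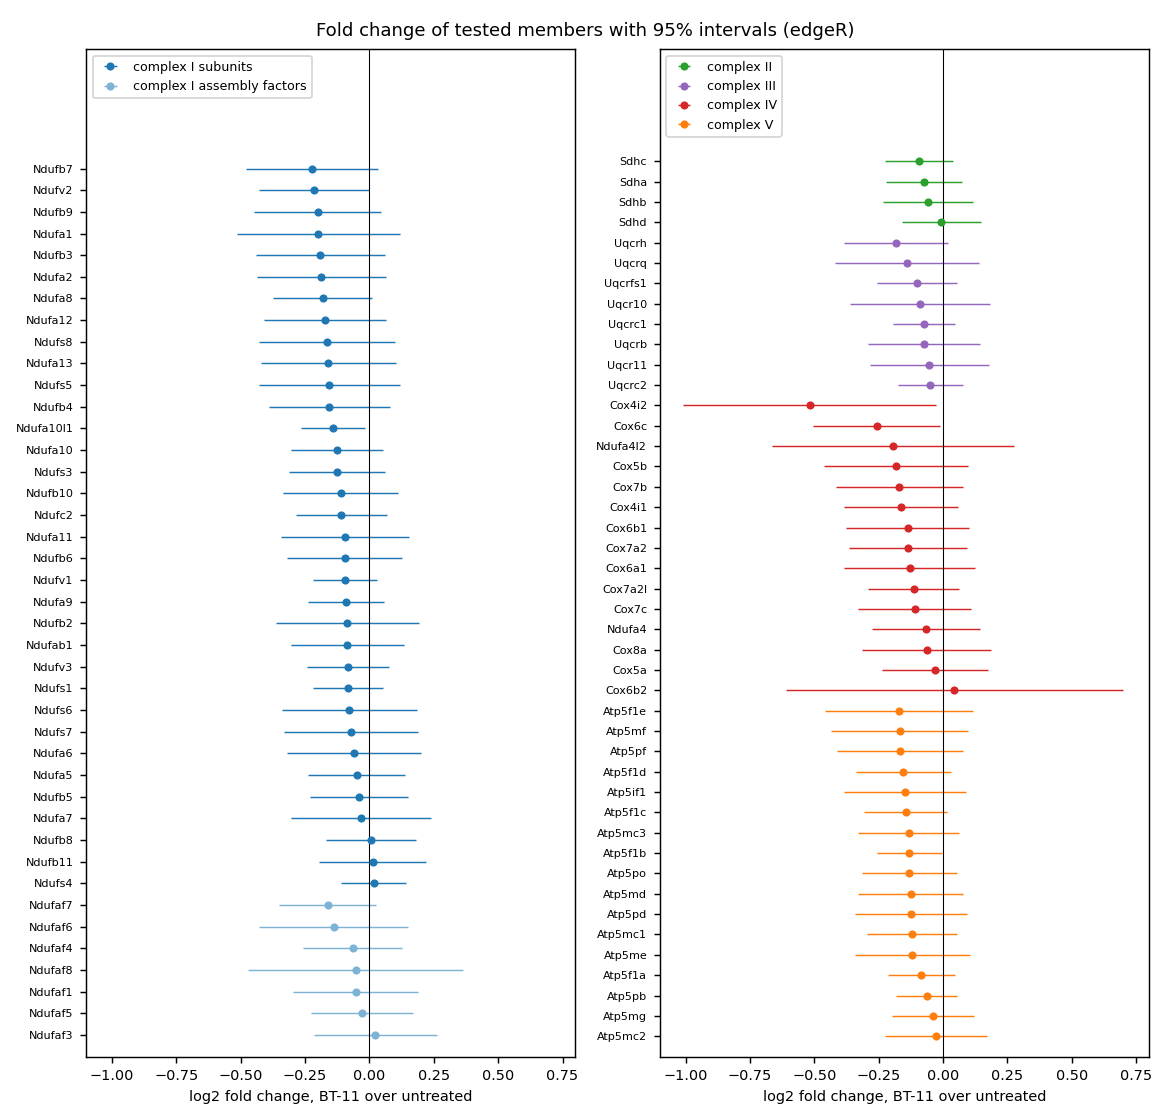
Log2 fold change of tested members (points, BT-11 over untreated) with the 95% interval of the edgeR fit (bars), complex I on the left and complexes II to V on the right. Most points lie between -0.25 and 0, and the intervals of all but 5 members reach 0 or above.

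The highest levels were in 2 untreated rats. Members summed to 11332, 10983, 10616, 10259 and 10123 CPM in BT-11 replicates 1 to 5, against 12555, 12571, 10954, 10474 and 10606 CPM in untreated replicates 1 to 5. Untreated replicates 1 and 2 lay above all other libraries, and the other 3 untreated libraries lay within the BT-11 range. Of the 86 members, 62 had both of these libraries above the other 8, against 11.0% of all genes tested. Without these 2 libraries, left out because they were seen to be the highest, 30 of the 86 members were lower and the median was 0.02. Leaving out untreated replicate 1 alone gave 64 lower members and a median of -0.06.

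**Figure D2:**
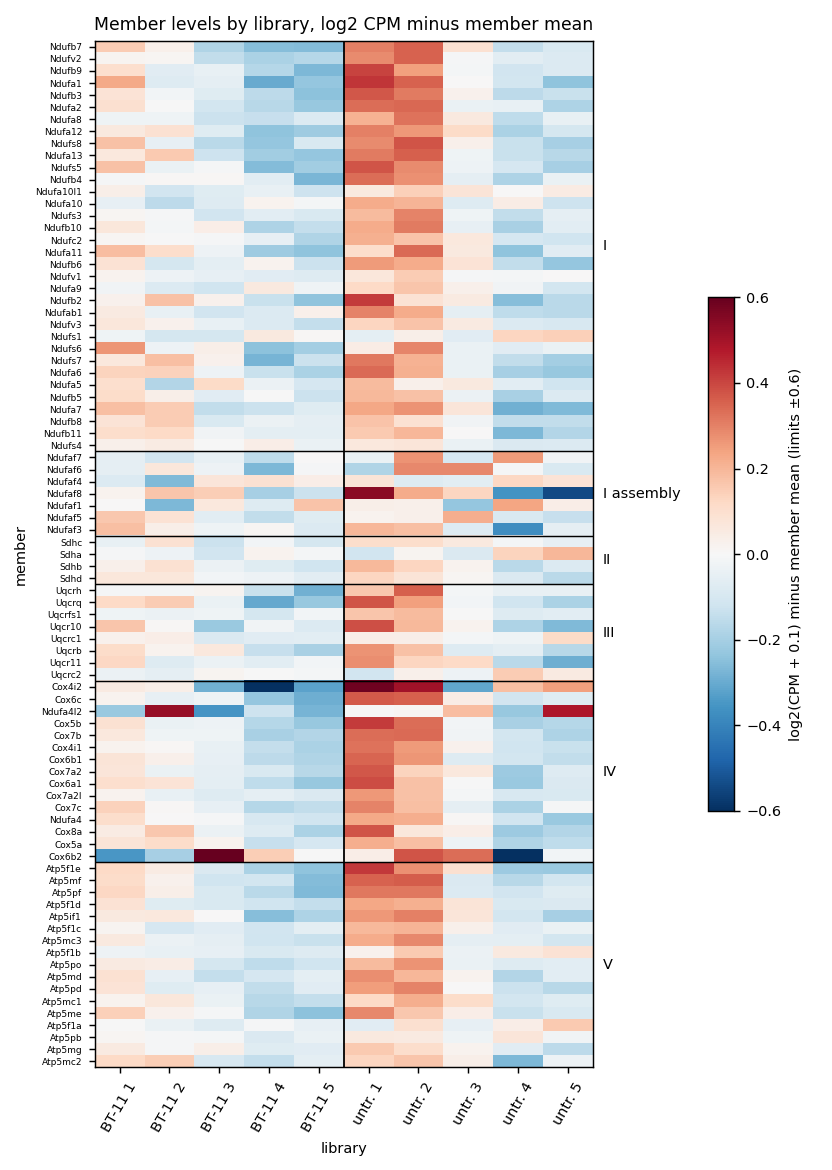
Level of tested members in each library, as log2(CPM + 0.1) minus the member's mean over the 10 libraries, with BT-11 libraries on the left of the vertical line and members grouped by complex. Untreated replicates 1 and 2 stand out as the high columns, while BT-11 replicates 4 and 5 and untreated replicates 4 and 5 are mostly low.

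Transcript length and cell type markers were set beside the members, library by library. With genes split into 4 equal classes by transcript length, those of the shortest class, members left out, had a median centred level of 0.16 and 0.11 (log2) in untreated replicates 1 and 2 and between -0.08 and 0.04 in the other libraries. For members the same 2 libraries had 0.27 and 0.20, and the others between -0.14 and 0.06. The 10 pan-neuronal markers summed to 7919, 6309, 7492, 8131 and 8016 CPM in BT-11 rats, against 9355, 8706, 7736, 9218 and 8658 CPM in untreated rats. Of these markers 9 were lower, with a median of -0.21. The other, Rbfox3, was higher, with 149 ± 6.87 CPM in BT-11 and 125 ± 10.2 CPM in untreated rats. Its fold change was 0.24 ± 0.0737 (adjusted p = 0.448 in edgeR). Among the 9 lower markers, Elavl4 and Nefm had the lowest fold changes. These were -0.50 ± 0.168 and -0.48 ± 0.113 (adjusted p = 0.451 and 0.402 in edgeR). DESeq2 called 1 of the 10 pan-neuronal markers, against 0.306% of all genes. The pan-neuronal sum was also high in untreated replicate 4, where members were low. Of 7 tested markers of hippocampal neurons 2 were lower and 5 higher, with a median of 0.16. Wfs1 had 357 ± 104 CPM in BT-11 and 149 ± 77.4 CPM in untreated rats. Its fold change, the highest of the list, was 1.25 ± 0.301 (adjusted p = 0.402 in edgeR). Prox1 had 21.6 and 26.9 CPM in untreated replicates 1 and 2, against 52.2 to 92.3 CPM in the other libraries. The hippocampal list summed to 1042 and 837 CPM in untreated replicates 1 and 2. The 9 astrocyte markers summed to 6885 to 7521 CPM in BT-11 and 7125 to 8224 CPM in untreated libraries, and 8 were lower, with a median of -0.19. The astrocyte sum was 7125 CPM in untreated replicate 2, a high library for members. All 8 oligodendrocyte markers were higher, with a median of 0.20. Their sums overlapped, at 8207 to 14807 CPM in BT-11 and 7744 to 15737 CPM in untreated libraries, and were highest in untreated replicate 1. Of 8 markers of meningeal fibroblasts 7 were lower, with a median of -0.75. The meningeal sum was 470 and 174 CPM in untreated replicates 2 and 5. It was 71.7 to 108 CPM in the other untreated libraries and 59.3 to 79.6 CPM in BT-11 libraries. The choroid plexus sum was high in untreated replicate 2 but was 68.7 CPM in untreated replicate 1. The part of transcript length or of these cell types in the members' values was not tested, and in a bulk sample fewer cells of a type cannot be told apart from less RNA per cell. Without untreated replicates 2 and 5, which hold most of the choroid plexus transcripts, the median over members was -0.12, with 81 of 86 lower. That setting leaves out a high and a low library for members and keeps untreated replicate 1, another high one. It therefore does not test the part of the choroid plexus.

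Members are short transcripts, with a median of 690 bases, against 2225 bases over all genes tested. In the shortest class of all tested genes, up to 1498 bases, 70 of 75 members were lower with a median of -0.12, against 63.0% of all genes of that class with a median of -0.04. After a trend of fold change with length over all genes was removed, 69 of 86 members were lower with a median of -0.06. Length also went with which library was highest. The 74 members highest in untreated replicate 1 or 2 had a median length of 617 bases, and the other 12 had 1527 bases. Across 83 members, the restricted complex IV isoforms left out, longer transcripts varied less between libraries of a group (Spearman correlation -0.69 of length with the within-group SD of log2 CPM). Longer members also tended to have higher, mostly less negative, fold changes (Spearman correlation 0.29 of length with log2 fold change). These correlations are across genes, which share libraries and are not independent replicates. The median within-group SD of log2 CPM was 0.17 for members, against 0.13 for 4548 genes at a like level.

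**Figure D3:**
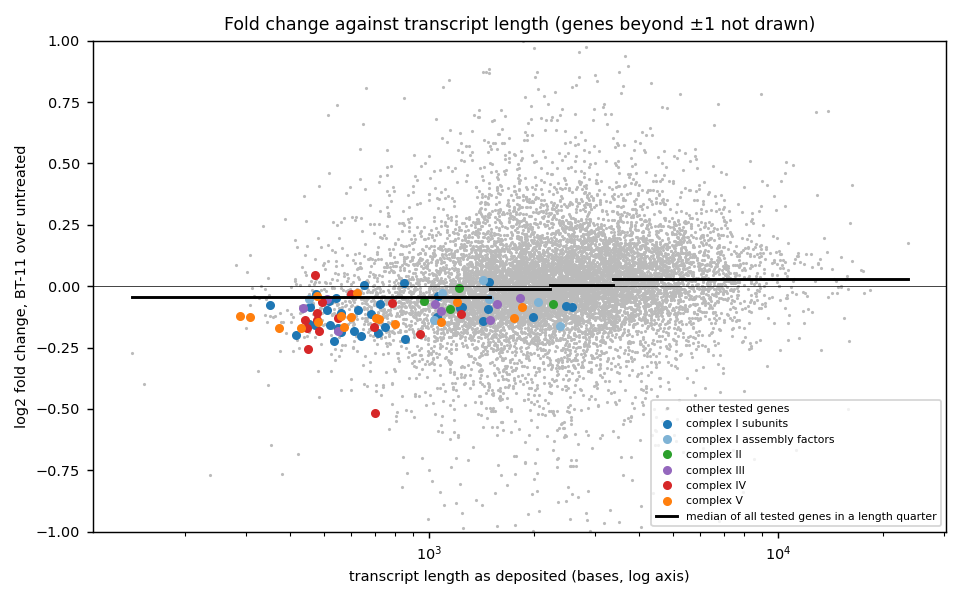
Log2 fold change of BT-11 over untreated against transcript length on a log axis, for members coloured by complex and other tested genes in grey. Black lines give the median of all genes in each length class, from -0.04 in the shortest to 0.03 in the longest, and most members lie at the short end below that line.

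Complex I, NADH dehydrogenase, is the largest of the complexes, with a catalytic core that holds the flavin and iron-sulfur clusters and a shell of accessory subunits. Its subunits summed to 3003 ± 156 CPM in BT-11 and 3215 ± 348 CPM in untreated hippocampi (SD, n = 5 each), and 32 of 35 were lower with a median of -0.11. All 7 core subunits had fold changes below 0, from -0.21 for Ndufv2 to -0.07 for Ndufs7. Ndufv2, an iron-sulfur subunit of the NADH-binding module (build rn6, chromosome 9, 113875719 to 113900170, minus strand), had 134, 134, 120, 116 and 118 CPM in BT-11 rats, against 161, 169, 132, 127 and 125 CPM in untreated rats. The 3 lower untreated values lie within the BT-11 range. The fold change was -0.21 ± 0.098 (adjusted p = 0.548 in edgeR).

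Ndufv1, the flavin-binding subunit, had 163, 157, 155, 153 and 152 CPM with BT-11, against 168, 179, 160, 159 and 161 CPM without. BT-11 replicate 1 lay among the untreated values. Ndufs1, the largest iron-sulfur subunit, ran the other way round between libraries, with 173, 164, 164, 184 and 177 CPM in BT-11 rats, against 169, 181, 168, 193 and 195 CPM in untreated rats. Here untreated replicates 4 and 5 were the high ones. Ndufs7, a core iron-sulfur subunit beside the quinone site, had a fold change of -0.07 ± 0.12. For Ndufs3, a core subunit of the arm that faces the matrix, and Ndufs8, which holds iron-sulfur clusters, they were -0.13 ± 0.0863 and -0.17 ± 0.122.

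Among accessory subunits 25 of 28 were lower. Ndufb7, of the membrane arm, had the lowest fold change of complex I (-0.22 ± 0.118, adjusted p = 0.607 in edgeR), with 57.8, 53.2, 46.0, 43.6 and 43.5 CPM in BT-11 and 64.2, 66.6, 55.4, 47.2 and 48.8 CPM in untreated rats. The ranges overlap. Ndufa8 had 91.4 ± 3.37 CPM in BT-11 and 103 ± 13.8 CPM in untreated rats. Ndufab1, the mitochondrial acyl carrier protein that is also a complex I subunit, had 47.6 ± 2.41 and 50.1 ± 7.58 CPM in the BT-11 and untreated groups. Ndufs4, a late-added subunit whose loss is known to impair complex I, was the highest by fold change at 0.02, with a 95% interval from -0.11 to 0.14. Ndufb8 and Ndufb11 were the other subunits at or above 0 (both 0.01). Ndufa10l1, which had the smallest p of all members, had 86.1 to 96.1 CPM (median 89.3) with BT-11 and 94.0 to 104 CPM (median 97.8) without, and a fold change of -0.14 ± 0.0572 (adjusted p = 0.506 in edgeR). None of its 10 deposited counts, nor those of Ndufa10, was whole, so that reads may have been split between the pair and both values are uncertain. The Ndufa10l1 line runs from 62796952 to 62798385 on chromosome 6 (build rn6), no longer than its transcript of 1434 bases. It therefore holds no intron, and whether it is a copy of another gene was not examined.

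The 7 complex I assembly factors, which help build the complex and are not part of it, were less abundant and flatter. They summed to 152 ± 4.76 CPM in BT-11 and 157 ± 8.17 CPM in untreated rats, and 6 were lower with a median of -0.05. Ndufaf7, a methyltransferase that modifies a core subunit, had 32.8, 31.5, 33.1, 30.7 and 34.1 CPM in BT-11 rats, against 33.1, 41.2, 31.8, 40.7 and 33.6 CPM in untreated rats. Its higher untreated values were in replicates 2 and 4. Ndufaf6, Ndufaf4 and Ndufaf1 had fold changes of -0.14, -0.07 and -0.05, and Ndufaf3 had 0.02. Of these 7 genes, 1 (Ndufaf8) had untreated replicates 1 and 2 above all other libraries.

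Complex II, succinate dehydrogenase, belongs to the citric acid cycle as well and is encoded wholly in the nucleus. Its 4 subunits summed to 559, 570, 525, 553 and 535 CPM in BT-11 and 569, 583, 549, 564 and 573 CPM in untreated libraries. The highest library held 1.11 times the lowest, the least of any complex. Sdha, the flavoprotein, had 249, 245, 231, 254 and 248 CPM in BT-11 rats, against 231, 253, 236, 274 and 287 CPM in untreated rats. Untreated replicate 1, the highest library for many members, was the lowest for Sdha. The iron-sulfur subunit Sdhb and the membrane anchors Sdhc and Sdhd had fold changes of -0.06 ± 0.0802, -0.09 ± 0.0609 and -0.01 ± 0.0701, against -0.07 ± 0.0674 for Sdha.

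Complex III, the cytochrome bc1 complex, summed to 1022 ± 37.7 CPM in BT-11 and 1076 ± 78.1 CPM in untreated rats, and all 8 members were lower with a median of -0.08. Uqcrfs1, the Rieske iron-sulfur protein that takes electrons from ubiquinol, had 129, 128, 129, 122 and 130 CPM in BT-11 rats, against 148, 150, 131, 125 and 126 CPM in untreated rats. The 5 BT-11 values span a narrow range inside the untreated one save for the lowest. Its fold change was -0.10 ± 0.0713 (adjusted p = 0.693 in edgeR). The core subunits Uqcrc1 and Uqcrc2 had -0.07 ± 0.0552 and -0.05 ± 0.0586, and untreated replicate 1 was the lowest library for Uqcrc2 at 223 CPM. Uqcrh, the acidic hinge protein, had the lowest fold change (-0.18 ± 0.0936), with Uqcrq at -0.14 ± 0.128. Cyc1, which encodes cytochrome c1 of this complex but whose symbol falls outside the member rule, had 121 ± 5.32 CPM in BT-11 and 128 ± 9.20 CPM in untreated rats, a fold change of -0.09 ± 0.0635.

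Complex IV, cytochrome c oxidase, varied most over the libraries. Its 17 genes summed to 2483, 2421, 2317, 2162 and 2097 CPM in BT-11 rats, against 2996, 2785, 2385, 2139 and 2183 CPM in untreated rats, and the highest library held 1.43 times the lowest. Within both groups replicates 4 and 5 held the lowest sums. Of 15 members tested 14 were lower, with a median of -0.14. Cox6c, a small membrane subunit (build rn6, chromosome 7, 74723178 to 74735651, minus strand), had 215, 205, 209, 181 and 173 CPM in BT-11 rats, against 275, 273, 219, 196 and 202 CPM in untreated rats. The untreated replicates 4 and 5 lay within the BT-11 range. The fold change was -0.26 ± 0.114 (95% interval from -0.50 to -0.01, adjusted p = 0.531 in edgeR).

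Cox4i1, the general form of a regulatory subunit that binds ATP, was the complex IV gene with the highest level per length. It had 501, 496, 479, 447 and 433 CPM in BT-11 rats, against 618, 590, 502, 454 and 450 CPM in untreated rats. Only untreated replicates 1 to 3 lay above the highest BT-11 library for Cox4i1. Cox5b and Cox7b had fold changes of -0.18 ± 0.128 and -0.17 ± 0.114. Cox7a2, Cox6a1 and Cox7c had -0.14 ± 0.105, -0.13 ± 0.117 and -0.11 ± 0.101. Ndufa4, Cox8a and Cox5a were nearest to 0 among the general subunits, at -0.07 ± 0.0964, -0.06 ± 0.115 and -0.03 ± 0.0943.

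Subunit isoforms known from muscle, lung or testis were present at trace levels. Cox4i2, a form of subunit 4 known from lung and induced by low oxygen, had 2.23, 2.21, 1.74, 1.30 and 1.70 CPM in BT-11 rats, against 3.27, 3.08, 1.71, 2.45 and 2.57 CPM in untreated rats. Its untreated replicate 3 lay within the BT-11 range and the other 4 above it. The fold change of -0.52 ± 0.226 (adjusted p = 0.531 in edgeR) rests on 13 to 30 counts per library. Per kilobase, Cox4i1 was 227 to 348 times as high as Cox4i2 in BT-11 and 177 to 297 times as high in untreated libraries, so that the ranges overlap. Cox6b2, known from testis, had 1.24 ± 0.369 CPM in BT-11 and 1.19 ± 0.394 CPM in untreated rats. Ndufa4l2, a paralogue of Ndufa4 known as induced by low oxygen, had 2.52 ± 0.732 and 2.84 ± 0.561 CPM in the same order of groups. The muscle isoforms Cox6a2 and Cox8b did not pass the filter, with at most 9 and 11 counts in any library, so that a difference was not detectable at this depth.

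Complex V, the ATP synthase, made up the largest part of the members' summed level, 34.2% in BT-11 and 34.4% in untreated libraries on average. Its genes summed to 3839, 3711, 3623, 3515 and 3519 CPM in BT-11 rats, against 4092, 4280, 3727, 3710 and 3784 CPM in untreated rats, and all 17 were lower with a median of -0.13. Atp5f1b, the catalytic beta subunit of the F1 head (build rn6, chromosome 7, 2504709 to 2511749, plus strand), had 1149, 1138, 1135, 1102 and 1112 CPM in BT-11 rats, against 1194, 1309, 1146, 1222 and 1248 CPM in untreated rats. Untreated replicate 3 alone lay below the highest BT-11 library. The fold change was -0.13 ± 0.0577 (95% interval from -0.26 to -0.01, adjusted p = 0.531 in edgeR, and 0.224 in DESeq2).

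The alpha subunit Atp5f1a, which forms the head with beta, had 611, 595, 581, 609 and 591 CPM in BT-11 rats, against 584, 653, 591, 629 and 683 CPM in untreated rats. Its groups overlap, and its highest library was untreated replicate 5. Of the central stalk, Atp5f1c (gamma), Atp5f1d (delta) and Atp5f1e (epsilon) had fold changes of -0.15 ± 0.0737, -0.15 ± 0.0845 and -0.17 ± 0.132. Atp5po, the stator subunit known as OSCP, had 141 ± 9.63 CPM in BT-11 and 153 ± 17.5 CPM in untreated rats. Atp5if1, the inhibitor that binds the enzyme when the proton gradient collapses, had 125 ± 12.5 CPM in BT-11 and 138 ± 20.9 CPM in untreated rats, a fold change of -0.15 ± 0.109.

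The c ring in the membrane is encoded by 3 genes, Atp5mc1, Atp5mc2 and Atp5mc3, known to differ in their import sequences and to give the same mature protein. Per kilobase, Atp5mc3 was the highest at 240 ± 12.9 CPM in BT-11 and 261 ± 33.9 CPM in untreated rats, and Atp5mc1 the lowest at 92.8 ± 6.57 and 99.9 ± 9.49 CPM. Atp5mc2 lay between them at 148 ± 13.5 and 149 ± 17.1 CPM. This order held in all 10 libraries, with Atp5mc3 at 1.49 to 1.73 times Atp5mc2 in BT-11 and 1.58 to 1.94 times in untreated libraries. Their fold changes were -0.12 ± 0.0802, -0.03 ± 0.0916 and -0.13 ± 0.0898 for Atp5mc1, Atp5mc2 and Atp5mc3. Atp5mc3 has 2 lines in the table that were summed.

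**Figure D4:**
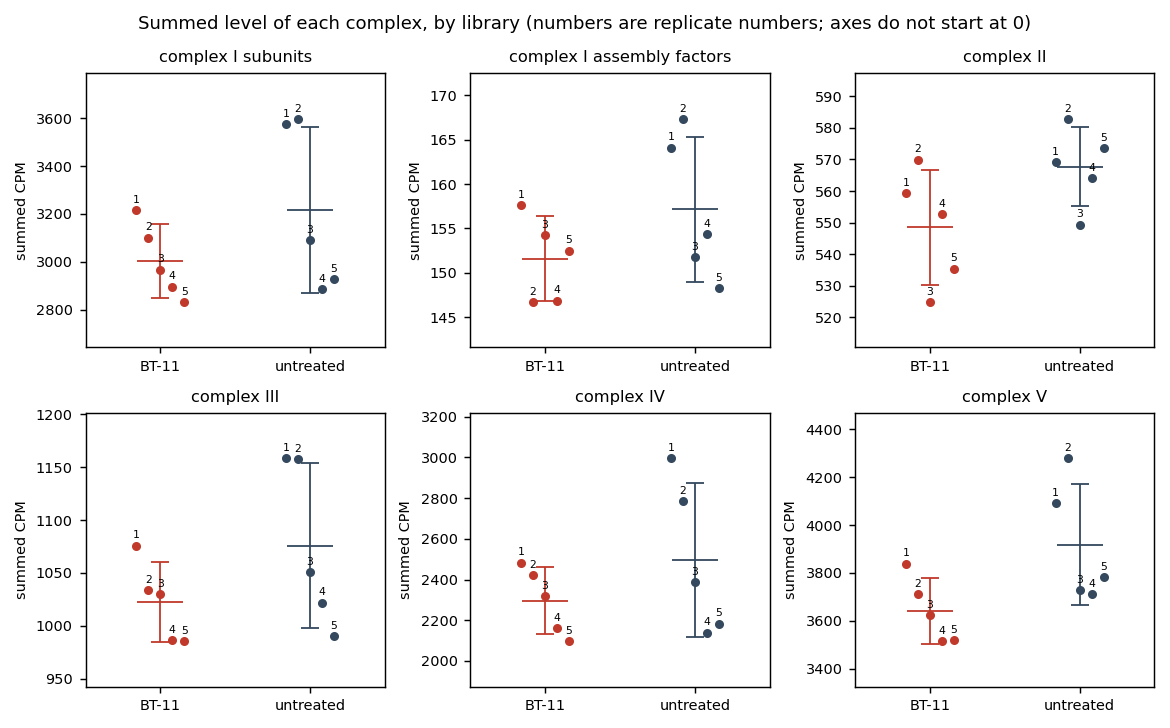
Summed CPM of the members of each complex in every library (points, with their replicate numbers), with the mean and SD of each group of 5 (lines). BT-11 is on the left of each panel, and the axes do not start at 0. In complexes I, III, IV and V untreated replicates 1 and 2 lie above all other libraries, while complex II spans 525 to 583 CPM.

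Across all members, levels per length differed far more between genes than between groups. Among general subunits, the mean level per kilobase ran from 18.5 CPM (Ndufab1) to 677 CPM (Cox4i1) in BT-11 rats, and from 19.5 to 752 CPM for the same genes in untreated rats. Within complex II the 4 subunits lay close together, from 89.2 to 108 CPM per kilobase in BT-11 and from 88.8 to 112 CPM in untreated rats. In complex V the beta subunit Atp5f1b stood at 641 and 696 CPM per kilobase in the BT-11 and untreated groups, against 323 and 340 CPM for Atp5f1a. Complex I assembly factors lay between 5.51 CPM (Ndufaf6) and 23.7 CPM per kilobase (Ndufaf3) in BT-11 rats. Complex shares of the members' summed CPM stayed close between groups, with complex I at 28.2%, complex III at 9.59%, complex IV at 21.5% and complex II at 5.15% in BT-11 rats, against 28.1%, 9.42%, 21.8% and 4.99% in untreated rats.

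**Figure D5:**
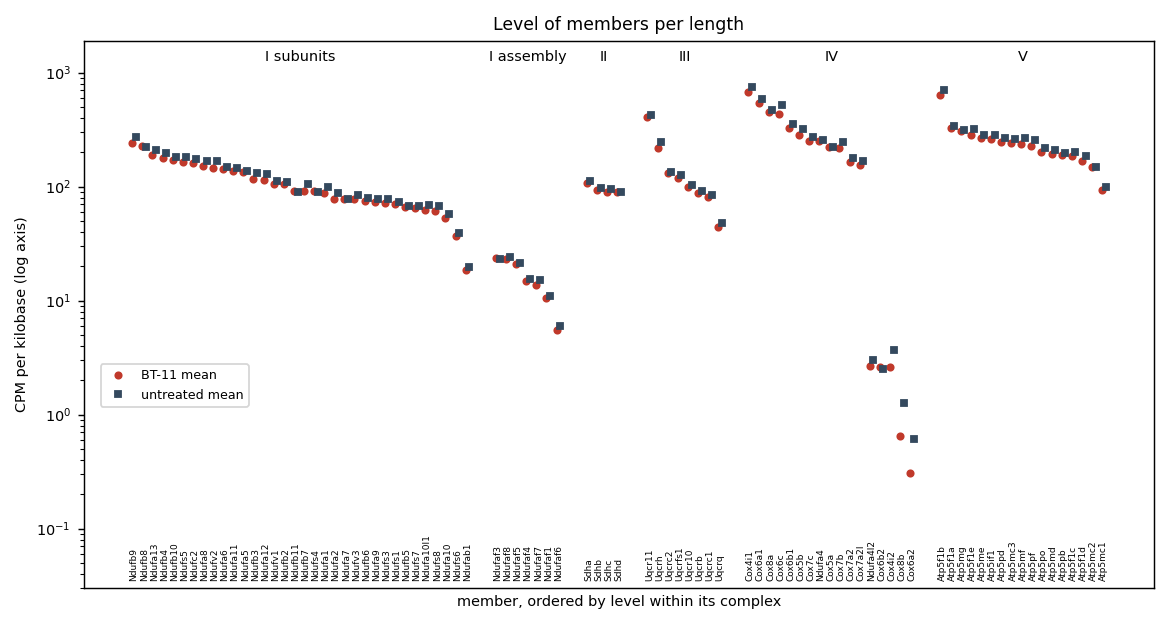
Mean level of the members per kilobase of transcript (CPM per kilobase, log axis), ordered within each complex, with circles for BT-11 and squares for untreated rats (means of 5 libraries). The 5 restricted complex IV isoforms lie below 4 CPM per kilobase, and all other complex IV genes lie above 150.

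Genes of the pathway outside the member rule were tested in the same fit, with 0 past the adjusted threshold in each list. Of 18 tested genes of the citric acid cycle and pyruvate dehydrogenase 16 were lower, with a median of -0.11, among them Pdha1, the E1 alpha subunit of pyruvate dehydrogenase (-0.17 ± 0.0725). Of 25 genes of mitochondrial import and the outer membrane 22 were lower, with a median of -0.08. The outer membrane channel gene Vdac1 had 416 ± 13.3 CPM in BT-11 and 463 ± 29.9 CPM in untreated rats, and Chchd6, of the cristae-organizing MICOS complex, had a fold change of -0.25 ± 0.0954. Of 16 electron carrier and ubiquinone synthesis genes 14 were lower (median -0.08), with the cytochrome c gene Cycs at -0.15 ± 0.0903. Of 34 further assembly factors, of all 5 complexes, 20 were lower (median -0.02), the lowest being Cox17, a copper chaperone of complex IV, at -0.25 ± 0.115. Of 19 regulators of mitochondrial biogenesis 10 were lower (median -0.00), and Ppargc1a, the coactivator PGC-1alpha, had a fold change of -0.12 ± 0.275.

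Members lie on 20 chromosomes, with at most 13 on one of them. Promoters from 250 bases before to 50 after the gene start (RefSeq, build GRCr8) could be matched for 77 of the 88 members. Cox4i2, Cox6c and Ndufa10l1 were among those without a match. Motifs of factors known to drive oxidative phosphorylation genes were searched on both strands. The NRF1 motif (GCGCA, any base, GCGC) was in 20.8% of members' promoters, against 9.98% of 9331 promoters of tested genes and 4.71% of all 27457 promoters. The ETS motif CCGGAAG, bound by GABP, was in 29.9%, against 17.2% of tested genes and 9.22% of all. The YY1 motif AAGATGGC was in 20.8%, against 5.47% and 3.44% in the same sets. The nuclear receptor element AAGGTCA, bound by ERR alpha, was in 14.3%, against 2.83% and 4.37%. At least 1 of these motifs was in 47 of the 77 and none in 30, and no motif overlapped one of another kind. The NRF1 motif was in 7 of 31 promoters of complex I subunits and 2 of 6 of its assembly factors. It was in 1 of 4 of complex II, 1 of 6 of III, 0 of 14 of IV and 5 of 16 of V. Against 9.98% of tested genes, 0 of 14 is not far from the background. Those 14 include the restricted isoforms Cox6a2, Cox6b2, Cox8b and Ndufa4l2. These matches are letters in a window and say nothing of binding in these rats.

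The 100 bases before the gene start follow for 1 gene of each complex, chosen after the motifs were seen to show each arrangement, with motifs in capitals (strand of the gene, 5′ to 3′). A motif that runs past the start is cut by this window and is not in capitals. Ndufb7, the complex I subunit with the lowest fold change, has an ETS motif (chr19:41477292-41477391, minus strand). Sdha has a pair of NRF1 motifs and another that runs past the start (chr1:30764453-30764552, plus strand). Uqcrc1 has an NRF1 motif and a YY1 motif that runs past the start (chr8:118468123-118468222, plus strand). Cox8a has a pair of ETS motifs and a YY1 motif that runs past the start (chr1:213833624-213833723, minus strand). Atp5f1a has an ETS motif and a nuclear receptor element (chr18:73567437-73567536, plus strand).
Ndufb7: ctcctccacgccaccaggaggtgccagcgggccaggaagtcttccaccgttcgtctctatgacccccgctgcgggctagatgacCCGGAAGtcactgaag
Sdha: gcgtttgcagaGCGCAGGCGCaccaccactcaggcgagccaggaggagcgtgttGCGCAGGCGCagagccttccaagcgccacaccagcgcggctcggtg
Uqcrc1: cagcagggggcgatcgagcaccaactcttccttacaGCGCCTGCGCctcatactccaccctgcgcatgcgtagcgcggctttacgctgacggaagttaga
Cox8a: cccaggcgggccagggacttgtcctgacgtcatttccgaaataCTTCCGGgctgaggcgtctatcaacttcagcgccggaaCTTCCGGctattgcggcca
Atp5f1a: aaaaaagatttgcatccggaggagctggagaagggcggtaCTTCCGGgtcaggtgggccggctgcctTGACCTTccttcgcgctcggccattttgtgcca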

How the data were processed

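Per the labels' protocols, KAPA mRNA-Seq Hyper Prep libraries, which keep the strand, were read for 50 bases from 1 end (HiSeq3000). Tools named, per the submitters' processing notes, are STAR 2.7.9a, bcl2fastq 2.19.1.403, Partek and DESeq2, with build rn6. Counting program, annotation and strand setting: not given in the sources used here. Antisense or overlapping neighbours may therefore share reads. The authors deposited estimated counts per gene model (83.2% of values whole) with transcript lengths, and CPM that match these counts scaled by library total plus an offset of 1e-04 within 0.0706 CPM. Counts were summed over the lines of a symbol (6 members have more than 1 line) and rounded. Ndufa1 and Atp5pb each have a pair of lines with equal values. Of the members 75 have only whole counts (within 0.001). Start positions count from 0 in the table, where length equals stop minus start in 511 lines and exceeds it in 0, and are printed from 1.

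The test was edgeR 4.0.16 (R 4.3.3) with the robust quasi-likelihood fit, TMM and the default filterByExpr cut. That kept 11771 genes (1915 did not pass), with Benjamini-Hochberg adjustment over all of them. P-values are two-sided and cover the spread between these rats. CPM per kilobase divides each line by its deposited length. Members and lists were chosen with earlier results of these data known. Named members are the 4 with the smallest p and the highest fold change per complex, a fixed set of core, isoform and ring subunits, members left out by the filter, and Cyc1. Of the members, 1 is counted in all totals but not reported by name or drawn singly here. Alternatives used DESeq2 1.42.0, limma 3.58.1 and sva 3.50.0. The fit was also run on counts simulated from its own dispersions, and the outcome is not given here. Genes named outside the members, and Ndufa10, Ndufaf8, Ndufb8 and Ndufb11, were chosen after their values were seen.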

Additional observations from a re-analysis of the deposited data

Results flagged for a closer look

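Among 116 groups of 5 libraries (the genes of the naming rule, Cyc1 included, and the summed levels), 4 had a library standing apart. Dixon's criterion was used (gap to the other 4 over range above 0.71), where chance flags about 1 group in 20. At that rate 4 of 116 groups is not more than chance gives. For Uqcrfs1, BT-11 replicate 4 had 122 CPM, the rest of its group lying at 128 to 130 CPM. For Cox6a2, BT-11 replicate 3 had 0.383 CPM, the rest of its group lying at 0 to 0.0994 CPM. Likewise untreated replicate 5 had 0.789 CPM, where the rest had 0.106 to 0.216 CPM. For Cox8b, untreated replicate 2 had 1.21 CPM, where the rest had 0.107 to 0.354 CPM. Both of these isoforms had at most 11 counts in any library.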

How the results depend on the processing

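No member passed an adjusted p of 0.05 under any alternative that gave a p. Of the 29 alternatives, 1 (removal of the length trend) gave none. The number of genes called was 36 in DESeq2 and 0 to 62 with each library left out (62 without untreated replicate 3), against 0 in edgeR. It was 479 within replicate numbers 4 and 5, a fit on only 2 libraries per group. The count of lower members was 53 of 86 within replicate numbers 4 and 5 (median -0.04), 85 within numbers 1 to 3 (median -0.16), 30 without untreated replicates 1 and 2, and 64 to 86 with each library left out. That split of numbers comes from the data, not from the labels. Without untreated replicates 1 and 2 the medians were 0.03 for complex I, 0.01 for II, 0.03 for III, 0.04 for IV and 0.019 for V, and -0.04 for the complex I assembly factors. With each library left out, the median over members ran from -0.15 to -0.06, with -0.06 without untreated replicate 1. With 1 surrogate variable it was -0.06 (66 lower). With the replicate block it was -0.11, with 81 lower and 0 genes called. Replicate numbers were not taken as pairs, since the labels name nothing they share and 1 of 5 correlations of deviations (0.04 for number 5) was not over 0.1. The other 4 were 0.15 to 0.22, and 3 of 5 BT-11 libraries matched their own number best, a hint from the data and not the design. The members' sum was lower with BT-11 in all 5 same-numbered pairs. That follows the direction of the group difference and cannot show that the numbers pair libraries. The replicate block gave 15 members at an unadjusted p under 0.05, against 5 without it, where 1320 and 1070 of all 11771 genes did so. The naming rule gave 49 tested genes, with Cyc1 and the 1 member not reported by name among them. Of these 49, 21 kept their direction in all 29 alternatives, and 75 of 1421 values changed sign. The causes were not tested. Low counts of the restricted isoforms, at most 42 in any library, limit what could be seen for them.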
